A study of Mus musculus with 4 samples.

Results

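Tissue inhibitors of metalloproteinases (TIMPs) and the secreted or membrane-bound proteases that they restrain were followed through single cell RNA-seq libraries of mouse dorsal root ganglion (DRG). The 10 genes were the inhibitors *Timp1*, *Timp2*, *Timp3* and *Timp4*, the matrix metalloproteinases *Mmp2*, *Mmp3*, *Mmp14* and *Mmp19*, and the ADAMTS proteases *Adamts1* and *Adamts5*. They were taken by symbol from the 33456 genes of the deposited count matrices, and each symbol matched 1 gene. All 10 had at least 1 unique molecular identifier (UMI, the tag that marks 1 captured RNA molecule) in control replicates 1 and 2 and in injury replicate 2, and 9 had one in injury replicate 1, where *Mmp3* was not found.

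The 4 libraries came from L4 ganglia by their labels, and from L4 and L5 ganglia by the methods of the study, of female C57BL/6 mice aged 8 to 12 weeks. The control group held 2 libraries of uninjured (naïve) ganglia, and the injury group held 2 libraries of ganglia taken 3 days after the sciatic nerve was crushed. The ganglia were digested with papain and collagenase and sorted for live cells before droplet capture. Cells of several mice were pooled in each batch, and the methods call the 2 libraries of a condition biological replicates. The p-value of a test between conditions thus measures the spread between pools. Tests between types were made within libraries, and their p-values measure how far the type differences vary from library to library. A library held 1294 to 2509 barcodes and 5585909 to 11210875 UMIs, and any 2 libraries shared 1 to 6 cell barcodes.

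Barcodes with 600 to 15000 UMIs, 500 to 4000 genes and under 10% mitochondrial UMIs were kept as cells (6095 of 6975). A cell was given a type when it had a UMI of at least 3 of the 6 marker genes on that type's list and of more markers than for any other list. This placed 5037 cells (82.6%) in 18 gates, and none of the 10 genes was on a marker list. The markers of each list were all detected in its own gate. The gate for monocytes was led by *Ctsg*, *Mpo* and *Prtn3*, which are neutrophil precursor genes, and is called the *Ly6c2* and *Plac8* group. A gate led by *Kcnj13* has no type name. The upper limit on UMIs leaves few neurons, 66 of the 5037 gated cells. Levels are UMIs summed over the cells of a type in 1 library, scaled to the total UMIs of the same cells in the usual unit CPM, and means are over libraries with at least 10 cells of the type.

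Matrix metalloproteinases cut collagens, other matrix proteins and cell surface proteins, and are made as inactive precursors. MMP14 sits in the plasma membrane and, together with TIMP2, activates the precursor of MMP2. ADAMTS proteases cut proteoglycans such as versican and aggrecan. TIMPs block the active site of these enzymes, and TIMP3 differs from the other TIMPs in binding to the matrix and in blocking ADAMTS enzymes well. In injured nerve this system is known for matrix turnover along the path of regrowing axons.

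In the GRCm38 (mm10) annotation, a pair of the inhibitor genes lie inside introns of synapsin genes on the opposite strand. *Timp1* (ENSMUSG00000001131, chrX:20870166-20874735, plus strand) lies in intron 5 of *Syn1* in 2 of the 2 *Syn1* transcripts that span it. *Timp3* (ENSMUSG00000020044, chr10:86300372-86349506, plus strand) lies in intron 6 of *Syn3* in 3 of 3 transcripts. *Timp4* (ENSMUSG00000030317, chr6:115241892-115252205, minus strand) lies within the span of *Syn2*, though in 0 of 5 spanning transcripts does a single intron hold all of it. *Timp2* (ENSMUSG00000017466, chr11:118301069-118355740, minus strand) overlaps the span of *Cep295nl* on the same strand. Whether their exons overlap was not checked, and reads of a shared exon could not be assigned with certainty. *Adamts1* (ENSMUSG00000022893, chr16:85793827-85803113) and *Adamts5* (ENSMUSG00000022894, chr16:85856173-85901828) are both on the minus strand. *Mmp2* (ENSMUSG00000031740) is at chr8:92827291-92853420, *Mmp14* (ENSMUSG00000000957) at chr14:54431612-54445364, *Mmp19* (ENSMUSG00000025355) at chr10:128790910-128800824 and *Mmp3* (ENSMUSG00000043613) at chr9:7445822-7455975, all on the plus strand. *Mmp19* overlaps *Tmem198b* of the other strand.

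Promoter sequences from RefSeq (GRCm38.p6, 250 bases before the gene start and 50 after it) were found for 7 of the 10 genes. Both strands were searched for 4 motifs: the AP-1 site TGANTCA, its variant TGAGTAA, the STAT site TTCNNNGAA and the CArG box. Of all 32851 promoters of this length, 7.81%, 2.68%, 8.30% and 1.63% held them. Only *Timp1* and *Mmp3* among the 7 held any of these letters. The *Timp1* promoter is shown because *Timp1* differed most between conditions within the cell types tested for injury. The *Mmp3* promoter is shown for its AP-1 site (a palindrome, so read on both strands), and the *Timp4* promoter because *Timp4* was nearly restricted to 1 cell type. Capitals mark a motif. The 30 bases of *Timp1* run from 16 to 45 after the gene start (chrX:20870181-20870210), and its motif from 27 to 33. The *Mmp3* motif runs from 46 to 40 bases before the gene start. The *Timp1* and *Mmp3* promoters (chrX:20869916-20870165 and chr9:7445572-7445821) are on the plus strand and that of *Timp4* (chr6:115252206-115252455) on the minus strand. A match is a description of these letters and says nothing of binding.
Timp1 promoter: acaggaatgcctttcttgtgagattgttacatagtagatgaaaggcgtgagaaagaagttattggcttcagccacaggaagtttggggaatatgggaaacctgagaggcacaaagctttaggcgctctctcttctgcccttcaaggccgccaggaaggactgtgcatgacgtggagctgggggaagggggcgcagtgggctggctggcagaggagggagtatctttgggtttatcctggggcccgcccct
Timp1 gene start: cggtgggtggaTGAGTAAtgcgtccaggaa
Mmp3 promoter: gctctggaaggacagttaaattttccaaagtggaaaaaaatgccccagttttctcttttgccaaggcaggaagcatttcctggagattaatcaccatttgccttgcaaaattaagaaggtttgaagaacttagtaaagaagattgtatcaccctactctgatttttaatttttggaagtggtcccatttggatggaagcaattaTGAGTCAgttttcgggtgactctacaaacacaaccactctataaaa
Timp4 promoter: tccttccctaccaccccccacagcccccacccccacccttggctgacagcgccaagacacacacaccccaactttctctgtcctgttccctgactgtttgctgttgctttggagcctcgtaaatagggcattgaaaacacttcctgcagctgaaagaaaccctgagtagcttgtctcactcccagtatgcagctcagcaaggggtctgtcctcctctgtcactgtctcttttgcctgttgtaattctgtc

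The 10 genes fell into different compartments of the ganglion, as the map of mean levels by cell type shows. *Mmp2*, *Mmp19* and *Timp1* were highest in the fibroblast-related gates, *Timp3* in vessel and glial gates, *Timp4* in smooth muscle, *Adamts1* in mural cells and *Adamts5* in satellite glial cells (SGC). In none of the immune gates was a member at its highest. Each type was tested against the mean of the other types with edgeR's quasi-likelihood test on the library sums, with the library as a block. A gene was called higher with a log2 fold of at least 2 and a p, adjusted over all genes by Benjamini-Hochberg, under 0.05.

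**Figure D1:**
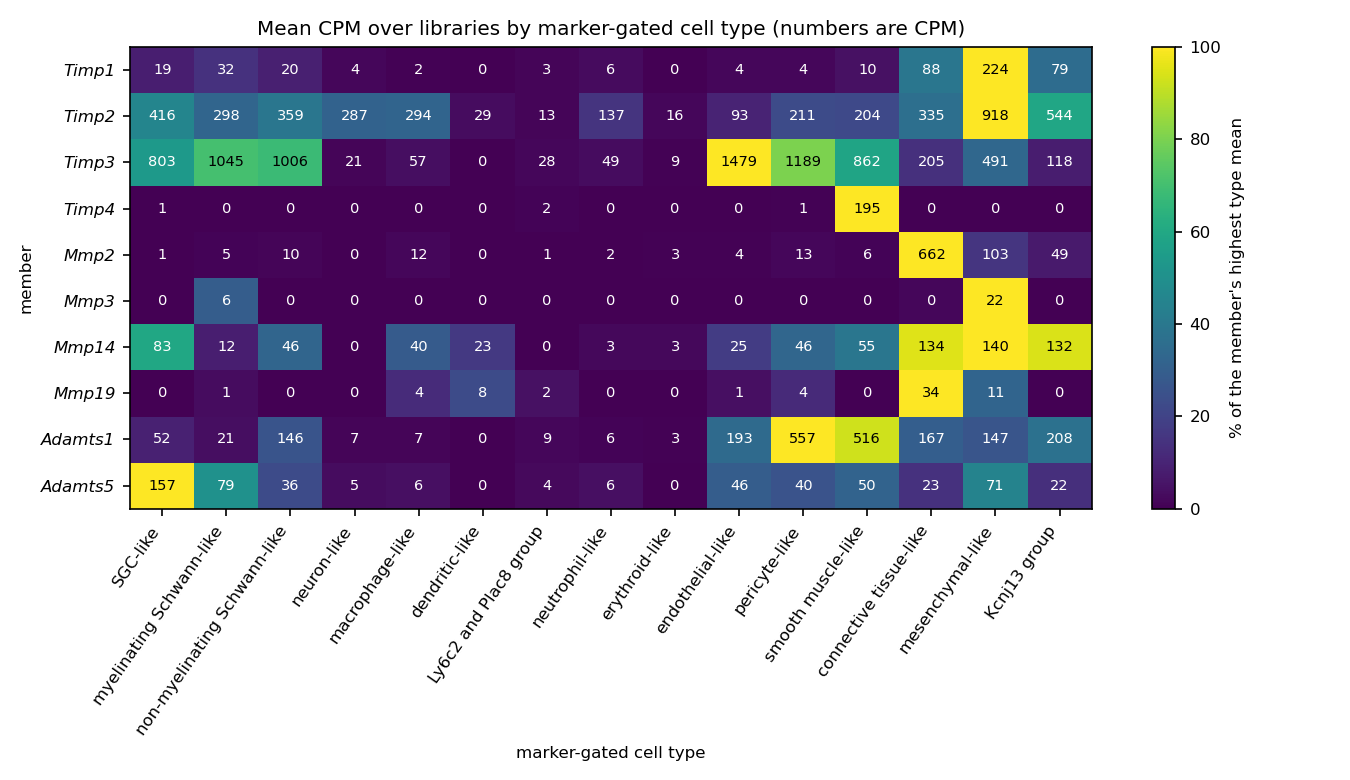
Mean CPM over libraries of each gene (rows) in each marker-gated cell type with at least 10 cells in at least 2 libraries (columns). Numbers are CPM and colours are the percentage of that gene's own highest type, so colours are read along a row: *Timp4* has 1 bright cell, in smooth muscle-like cells, and *Timp2* is above 0 in every column.

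Of the 10 genes, 8 had counts high enough for this test, and *Mmp3* and *Mmp19* did not. Mesenchymal-like cells had 6 of the 8 called higher (9.61% of the 7931 genes tested were called), connective tissue-like cells 4 (10.9%), the *Kcnj13* group 4 (7.11%) and smooth muscle-like cells 4 (11.0%). SGC-like cells had 3 (10.6%). Endothelial-like cells had 2 (11.0%), pericyte-like cells 2 (10.7%), myelinating Schwann-like cells 2 (9.17%) and non-myelinating Schwann-like cells 1 (4.72%). No gene of the 8 was called higher in macrophage-like (11.5%), neutrophil-like (9.53%), dendritic-like (7.14%), erythroid-like (6.38%) or neuron-like cells (11.9%) or in the *Ly6c2* and *Plac8* group (9.83%). The 8 passed the filter through the types where they are high, so these counts describe where they are found and are no test of the group.

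*Timp1*, the inhibitor most known for rising with inflammation and injury, was highest in mesenchymal-like cells. Its level there was 193 and 269 CPM without injury (replicates 1 and 2) and 207 and 228 CPM with it, a mean of 224 CPM ± 33.1 (SD, n = 4). The order of the conditions was not the same in both numbered libraries, and the groups overlapped. Against the mean of the other types *Timp1* was higher by 5.12 on the log2 scale (SE 0.33, adjusted p = 2.47e-18, edgeR).

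Connective tissue-like cells followed with a mean of 88.2 CPM ± 74.8 (SD, n = 4), and its libraries ranged from 18.2 to 179 CPM. Mesenchymal-like cells were above them by 1.34 (log2, SE 0.28, adjusted p = 2.73e-04, edgeR). The *Kcnj13* group came next (79.3 CPM ± 24.8, SD, n = 2 libraries) and did not differ from connective tissue-like cells beyond the spread (adjusted p = 0.814, edgeR). In the 1 library with enough adventitial fibroblast-like cells, control replicate 1, *Timp1* was at 93.2 CPM.

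Myelinating Schwann-like cells of control replicate 2 were at 71.1 CPM, but all 11 UMIs were in 1 cell. In macrophage-like cells 13 *Timp1* UMIs were found in 1024 cells, and in neutrophil-like cells 5 UMIs in 110 cells. Dendritic-like, B cell-like, T cell-like and erythroid-like cells had 0. Of 43 dendritic-like cells this allows a share of up to 6.98% with a UMI, and of 62 T cell-like cells up to 4.84%, for counting error only. Of the 1439 *Timp1* UMIs in all barcodes 888 fell in gated cells, 42.8% of them mesenchymal-like and 34.2% connective tissue-like.

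Under the limits on UMIs and genes, *Timp1* and its host gene *Syn1* were high in different cells. *Syn1*, a synaptic vesicle gene of neurons, was at 174 and 222 CPM in neuron-like cells of control replicate 2 and injury replicate 2, the libraries with at least 10 such cells. *Timp1* was at 2.72 and 5.99 CPM there. With the upper limits on UMIs and genes lifted there were 284 neuron-like cells in all 4 libraries. Their *Timp1* ranged from 4.03 CPM in control replicate 1 to 73.9 CPM in injury replicate 1 (mean 26.0 ± 32.9, SD, n = 4). These levels rest on 185 UMIs in 38 of the 284 cells. The conditions were not compared in them, as only types with at least 10 cells in every library under the limits were tested. Under the limits control replicate 1 and injury replicate 1 held 4 and 3 neuron-like cells. In the 284 cells *Timp2* was at 222 ± 67.5 CPM and *Timp3* at 38.0 ± 8.14 CPM. In mesenchymal-like cells *Syn1* was at 0 to 5.08 CPM.

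*Timp2*, which inhibits MMP2 and also takes part in its activation, was the most widely spread of the inhibitors. In mesenchymal-like cells it was at 721 and 1043 CPM in the control libraries and 949 and 959 CPM in the injury libraries (918 CPM ± 138, SD, n = 4), and it was called higher there than in the other types (log2 fold 2.50, SE 0.17, adjusted p = 1.32e-17, edgeR). It was the single type of those in this test in which *Timp2* was called higher, and adventitial fibroblast-like cells were too few to be in it. The next levels, 544 CPM in the *Kcnj13* group, 416 CPM in SGC-like cells, 359 CPM in non-myelinating Schwann-like cells and 335 CPM in connective tissue-like cells, differed from their neighbours in this order by less than the spread (adjusted p = 0.655 to 0.870, edgeR). The *Kcnj13* group was below mesenchymal-like cells (log2 difference 1.13, SE 0.34, adjusted p = 0.0370, edgeR).

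The 10 adventitial fibroblast-like cells of control replicate 1 held more *Timp2* still, 1328 CPM, with no replicate of that size. With a gate of 2 markers, adventitial fibroblast-like cells were the highest type for *Timp2*. In macrophage-like and neutrophil-like cells it was the TIMP with the most UMIs: macrophage-like cells held 1364 of *Timp2*, 167 of *Timp3*, 13 of *Timp1* and 0 of *Timp4*, and neutrophil-like cells 70, 25, 5 and 0. By level of *Timp2*, macrophage-like cells were at 239 and 340 CPM without injury and 272 and 328 CPM with it, and neutrophil-like cells at a mean of 137 CPM ± 64.4 (SD, n = 4). The *Ly6c2* and *Plac8* group was at 0 to 24.4 CPM, from 7 *Timp2* UMIs beside 12 of *Timp3*.

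*Timp3*, the inhibitor that stays bound to the matrix, was highest in vessel and glial gates. Endothelial-like cells were at 1707 and 1551 CPM in the control libraries and 1092 and 1565 CPM in the injury libraries. Pericyte-like cells were at 1928 and 784 CPM and at 1478 and 566 CPM, and myelinating Schwann-like cells at 1674 and 737 CPM and at 1011 and 756 CPM. In both of these types the libraries with the number 1 were above those with the number 2 in each condition. Smooth muscle-like cells were more even, at 722 to 923 CPM, and SGC-like cells were at 1146 and 686 CPM in the control libraries and 722 and 656 CPM in the injury libraries.

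*Timp3* was called higher in 6 types: endothelial-like (log2 fold 3.65, SE 0.25), pericyte-like (3.20, SE 0.29), myelinating Schwann-like (3.12, SE 0.29), smooth muscle-like (2.82, SE 0.30), SGC-like (2.74, SE 0.28) and non-myelinating Schwann-like cells (2.48, SE 0.51), with adjusted p from 2.65e-17 to 4.97e-04 in edgeR. The first 5 types in order of level did not differ from their neighbours beyond the spread (adjusted p = 0.420 to 0.931, edgeR). Mesenchymal-like cells held 849 *Timp3* UMIs. Their log2 fold of 1.92 (SE 0.32, adjusted p = 3.22e-06, edgeR) was just under the 2 that a call needs. Connective tissue-like cells were lower, at 205 CPM ± 49.3 (SD, n = 4). Macrophage-like cells were at 15.7 to 132 CPM. *Timp3* was at 35.3 and 5.99 CPM in the neuron-like cells of the 2 libraries that had enough of them under the upper limit on UMIs.

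*Timp4*, an inhibitor known from heart and other muscle-rich tissue, was nearly restricted to smooth muscle-like cells. Replicates 1 and 2 were at 255 and 146 CPM without injury and at 272 and 108 CPM with it, from 77, 22, 95 and 9 UMIs. The libraries numbered 1 were above those numbered 2 and the conditions overlapped. Smooth muscle-like cells held 203 of its 210 UMIs in gated cells (96.7%). All 4781 other gated cells together held 7, which is 0.330 CPM (exact 95% Poisson interval 0.133 to 0.679 CPM, counting error only). The type was called higher than the others (adjusted p = 9.57e-17, edgeR) and than the next in order, the *Ly6c2* and *Plac8* group with 1 UMI (adjusted p = 7.13e-09, edgeR). Among smooth muscle-like cells 28.0%, 27.5%, 24.8% and 22.2% of cells had a *Timp4* UMI in the same order of libraries, beside 0 of 1024 macrophage-like cells. Pericyte-like cells, the other mural cells, held 1 *Timp4* UMI in 209 cells.

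**Figure D2:**
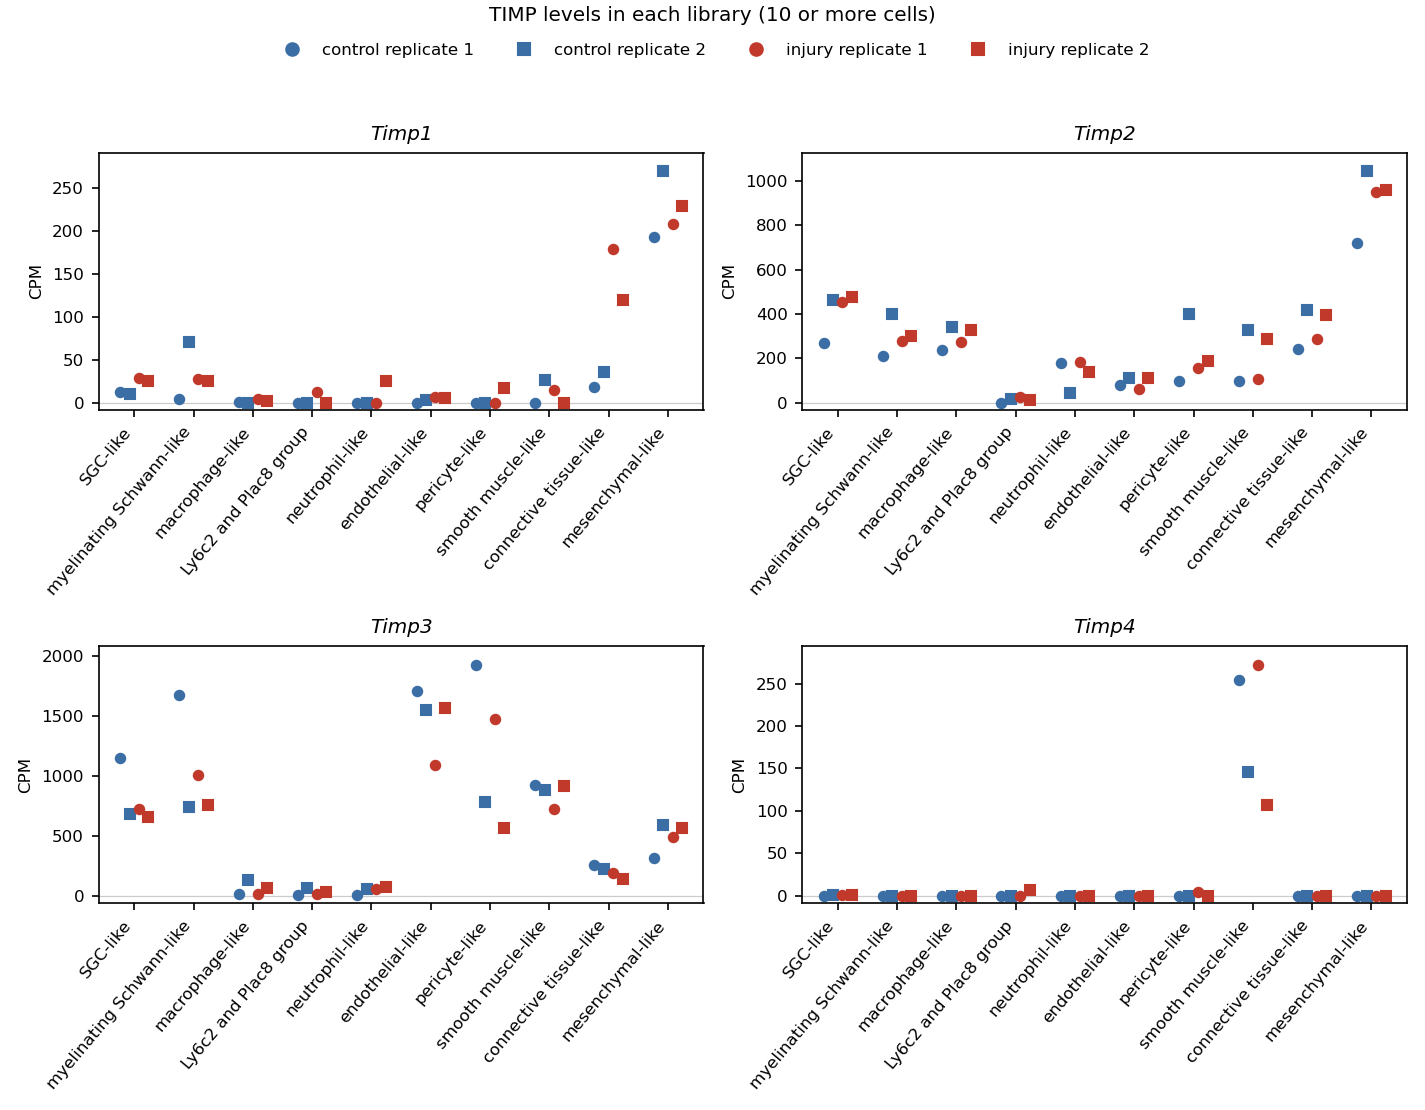
CPM of each *Timp* gene (linear axis from 0) in each library, for the 10 types with at least 10 cells in every library. Points are single libraries, blue for control and red for injury, circles for replicate 1 and squares for replicate 2. *Timp1* in connective tissue-like cells is at 18.2 and 36.2 CPM in control and at 179 and 120 CPM in injury libraries, and *Timp4* is above 10 CPM in smooth muscle-like cells alone.

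*Mmp2*, the gelatinase whose precursor MMP14 activates, belonged to connective tissue-like cells. It was at 845 and 466 CPM in the control libraries and 648 and 688 CPM in the injury libraries (662 CPM ± 156, SD, n = 4), and 88.3% of its UMIs in gated cells were there. Its fold over the other types was 7.18 on the log2 scale (SE 0.18, adjusted p = 3.78e-33, edgeR). Among types with enough cells in at least 2 libraries, mesenchymal-like cells came next at 103 CPM ± 33.1. They were lower than connective tissue-like cells by 2.89 (log2, SE 0.21, adjusted p = 1.82e-15, edgeR). The 10 adventitial fibroblast-like cells of control replicate 1 were at 256 CPM of *Mmp2* from 11 UMIs, against 152 CPM in mesenchymal-like cells of that library. SGC-like cells were at 0 to 2.02 CPM, and the shares of connective tissue-like cells with an *Mmp2* UMI were 86.8%, 74.8%, 80.9% and 88.1% over the 2 control and then the 2 injury libraries.

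*Mmp14*, the membrane-bound activator, was shared more evenly. Mesenchymal-like (140 CPM ± 26.7), connective tissue-like (134 CPM ± 28.6, both n = 4) and *Kcnj13* group cells (132 CPM ± 4.81, n = 2) did not differ from their neighbours beyond the spread (adjusted p = 0.746 and 0.878, edgeR). The 10 adventitial fibroblast-like cells of control replicate 1 were at 210 CPM of *Mmp14* from 9 UMIs, against 178 CPM in mesenchymal-like cells of that library. SGC-like cells were at 83.5 CPM ± 6.82 (SD, n = 4) and above smooth muscle-like cells, next in order (log2 difference 0.96, SE 0.29, adjusted p = 0.00755, edgeR). Against the mean of the other types *Mmp14* was called higher in connective tissue-like (log2 fold 3.09, SE 0.22), mesenchymal-like (2.94, SE 0.25), *Kcnj13* group (2.87, SE 0.49) and SGC-like cells (2.36, SE 0.24), with adjusted p from 2.82e-16 to 1.89e-05 in edgeR. Macrophage-like cells held 16.0% of the *Mmp14* UMIs in gated cells, at 17.0 to 63.5 CPM. The *Ly6c2* and *Plac8* group held 0 in 125 cells, a count that allows up to 2.40% of cells with a UMI.

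The 3 parts of the known MMP2 activation complex, *Mmp2*, *Mmp14* and *Timp2*, were all present in connective tissue-like and in mesenchymal-like cells. In connective tissue-like cells, 38 of 205, 41 of 143, 73 of 220 and 53 of 143 cells had UMIs of both *Mmp14* and *Timp2*, controls first. UMIs of both *Mmp2* and *Timp2* were in 101, 80, 122 and 97 of the same cells. *Timp2*, with or without the others, was found in 113, 111, 147 and 113 of these cells, *Mmp14* in 65, 53, 100 and 65 and *Mmp2* in 178, 107, 178 and 126. Whether the pairs met in a cell more often than their single shares give was not tested. In mesenchymal-like cells, 16 of 41, 55 of 163, 27 of 61 and 40 of 85 cells had both *Mmp14* and *Timp2*, controls first. Both *Mmp2* and *Timp2* were in 17, 40, 17 and 24 of those cells. SGC-like cells had *Timp2* and *Mmp14* and next to no *Mmp2*.

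*Mmp19*, a protease of low level in these cells, was found mostly in connective tissue-like cells, with 107 of 148 UMIs in gated cells. It was at 35.2 and 23.6 CPM in control and 34.0 and 42.2 CPM in injury libraries there, and at 7.21 to 15.1 CPM in mesenchymal-like cells. *Mmp3* (stromelysin), a secreted protease known to be induced by inflammation, had 45 UMIs in 8 barcodes of all 4 libraries. Single barcodes held up to 16 of them in control replicate 1, 12 in control replicate 2 and 5 in injury replicate 2. Of these barcodes 2 were mesenchymal-like cells, and a level per type rests on so few cells that it says little of the type.

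*Adamts1* was highest in mural cells. Pericyte-like cells were at 730 and 224 CPM in the control libraries and 794 and 480 CPM in the injury libraries. Smooth muscle-like cells were at 940 and 406 CPM and at 553 and 167 CPM. The means, 557 and 516 CPM, did not differ beyond the spread (adjusted p = 0.980, edgeR), and their order turned without injury replicate 1 and without injury replicate 2. Both types were called higher than the others (log2 folds 4.13, SE 0.31, and 4.20, SE 0.29, adjusted p = 9.45e-16 and 1.83e-17, edgeR). In both, the libraries numbered 1 were above those numbered 2. Immediate early genes, a list of 13 genes known to rise while tissue is dissociated, moved the same way: their summed level in pericyte-like cells was 39200 and 12672 CPM in the control libraries and 36325 and 14073 CPM in the injury libraries, and in smooth muscle-like cells 28920 and 15564 CPM and 29495 and 10965 CPM. This order of the list was not particular to mural cells. It was also seen in both conditions in SGC-like, myelinating Schwann-like, macrophage-like, endothelial-like, connective tissue-like and mesenchymal-like cells. It was not seen in the control libraries of the *Ly6c2* and *Plac8* group or in the injury libraries of neutrophil-like cells. The part of these genes in the *Adamts1* level was not tested.

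*Adamts1* was also called higher in endothelial-like cells (log2 fold 2.62, SE 0.32), the *Kcnj13* group (2.60, SE 0.62), connective tissue-like cells (2.46, SE 0.32) and mesenchymal-like cells (2.00, SE 0.38), with adjusted p from 1.49e-09 to 0.00217 in edgeR. Its neighbour on the chromosome, *Adamts5*, the main aggrecan-cutting ADAMTS protease of cartilage, had another distribution. *Adamts5* was highest in SGC-like cells, at 155 and 159 CPM without injury and 125 and 191 CPM with it, and 64.0% of its UMIs in gated cells were there. Pericyte-like cells, one of the types rich in *Adamts1*, held 17 *Adamts5* UMIs.

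SGC-like cells were above myelinating Schwann-like cells, the next in order at 79.3 CPM ± 24.9 (n = 4), by 1.01 for *Adamts5* (log2, SE 0.30, adjusted p = 0.00889, edgeR). *Adamts5* was called higher than in the other types in SGC-like (log2 fold 3.92, SE 0.26), myelinating Schwann-like (2.83, SE 0.44), mesenchymal-like (2.45, SE 0.39) and smooth muscle-like cells (2.38, SE 0.47), with adjusted p from 5.03e-18 to 6.44e-05 in edgeR. The single library with enough adventitial fibroblast-like cells was higher, at 280 CPM from 12 UMIs. With a gate of 2 markers, adventitial fibroblast-like cells were the highest type for *Adamts5*.

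**Figure D3:**
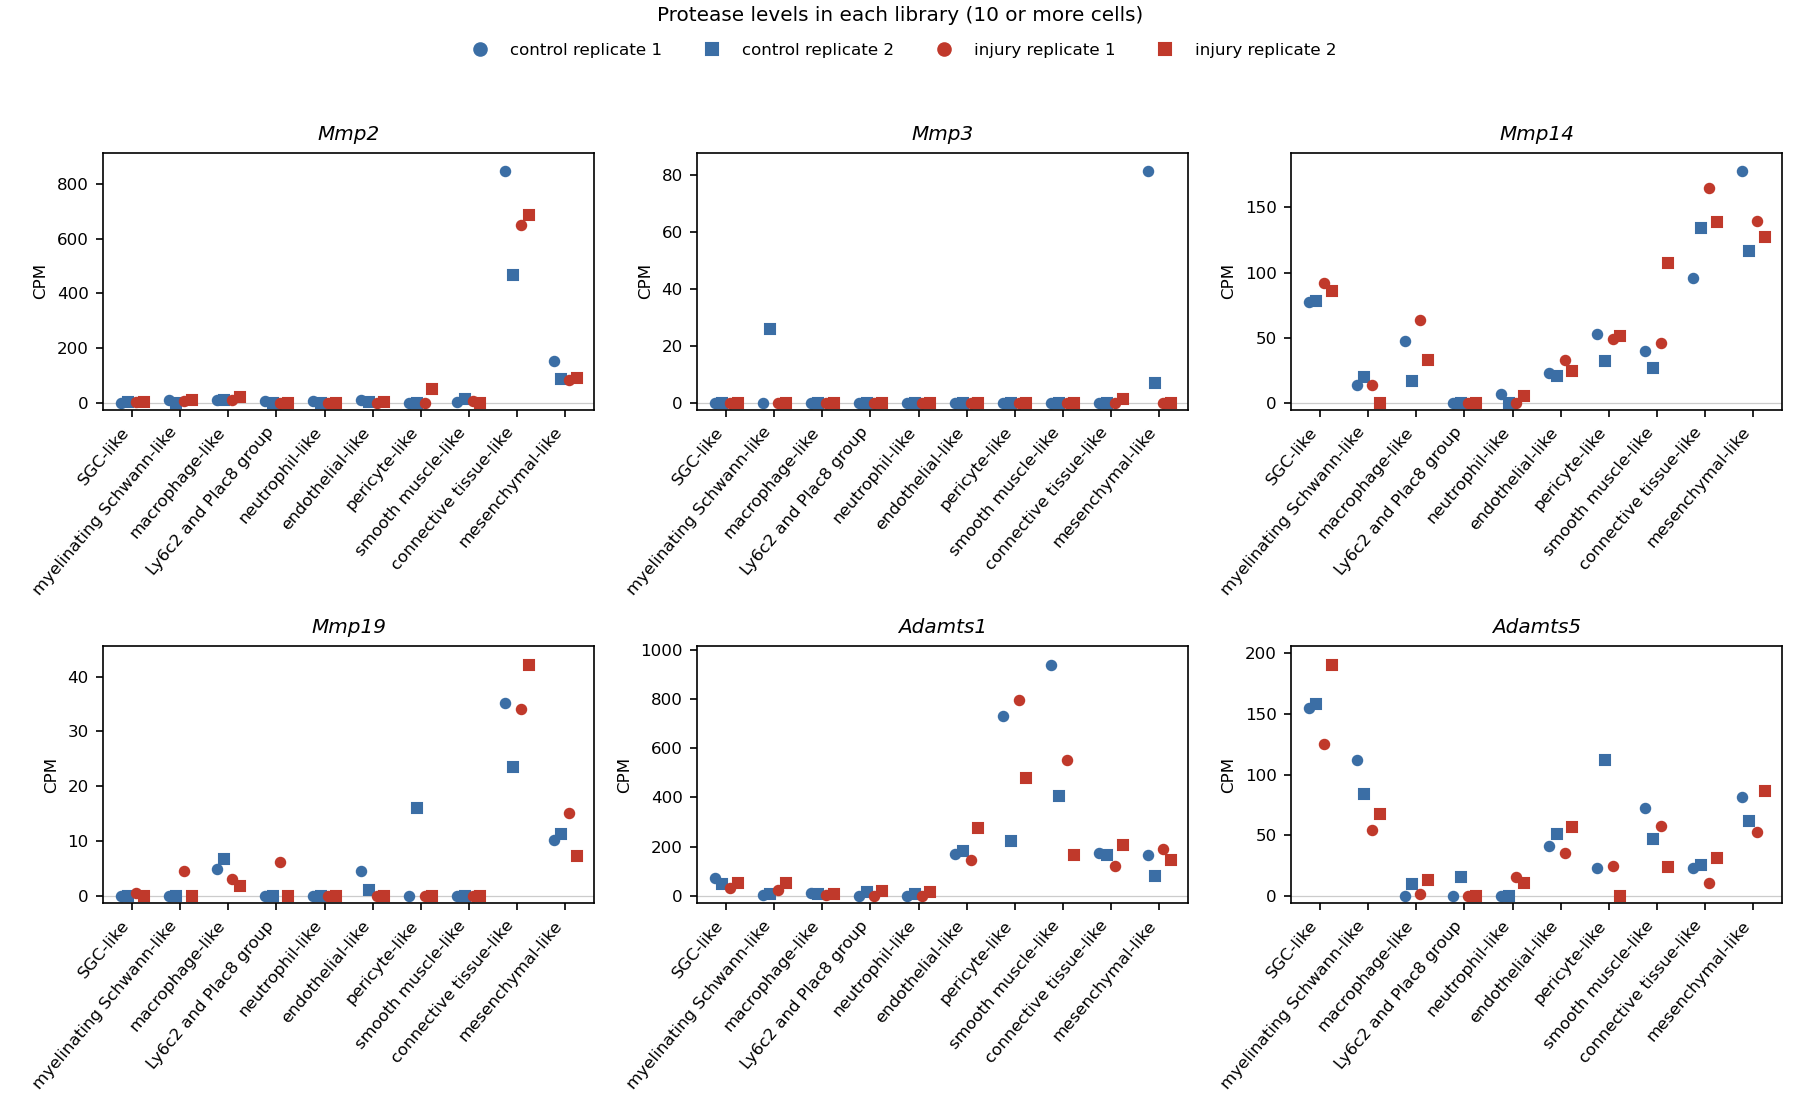
CPM of the 6 protease genes (linear axes from 0, each with its own range) in each library, for the 10 types with at least 10 cells in every library. Points are single libraries, blue for control and red for injury, circles for replicate 1 and squares for replicate 2. *Mmp2* stands at 466 to 845 CPM in connective tissue-like cells, *Adamts1* in pericyte-like and smooth muscle-like cells differs between replicates 1 and 2 in both conditions, and *Adamts5* is at 125 to 191 CPM in SGC-like cells.

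Correlations over the 50 sums of a type in a library describe how alike the members were placed. The highest between members were those of *Timp3* with *Adamts5* (Pearson's r = 0.80) and with *Adamts1* (r = 0.72), of *Timp2* with *Mmp14* (r = 0.65) and of *Timp1* with *Mmp2* (r = 0.65). *Timp4* followed none of the other TIMPs (r of -0.11 to 0.25). Among all 7931 genes, *Timp1* was most like *Col8a2* (r = 0.80), *Htra3* (r = 0.79) and *Fzd2* (r = 0.78), and *Timp2* most like *Ddah2* (r = 0.80), *Cd63* (r = 0.79) and 2810055G20Rik (r = 0.76). *Timp3* was most like *Jam3* (r = 0.94), *Fermt2* (r = 0.89) and *Sparc* (r = 0.88), and *Timp4* most like 4631405J19Rik (r = 0.99), *Susd5* (r = 0.98) and *Tcap* (r = 0.97). Sums of 1 library share its preparation and depth, and sums of 1 type share its cells. Outside smooth muscle-like cells *Timp4* was close to 0 UMIs, so its correlations rest on the sums of that type in 4 libraries.

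The study asked how cells of the ganglion respond to nerve injury. With all barcodes of a library summed, none of the 10 genes passed the test of injury against control (edgeR, adjusted p under 0.05 and an absolute log2 fold change of 2 or more), and neither did any other of the 14478 genes tested (0% called). At an unadjusted p under 0.05 there were 0 of the 10 and 291 of all genes, and DESeq2 called 0 of the 10 and 25 of all genes. *Timp1* was at 19.2 and 34.3 CPM in the control and 53.3 and 37.2 CPM in the injury libraries, so the injury libraries were the higher, by 0.89 on the log2 scale (SE 0.39, adjusted p = 1.00, edgeR). *Mmp14* was likewise higher in both injury libraries (43.1 and 43.7 against 69.4 and 46.3 CPM), and *Mmp3* lower (2.86 and 2.05 against 0 and 0.633 CPM). Of all genes, 12.6% had both injury libraries above both control libraries and 13.4% had both below. In such sums, fewer cells of a type and less RNA per cell cannot be told apart.

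Within cell types the test could be run in the 10 types with at least 10 cells in all 4 libraries. No member passed in any of them. The share of all genes called was 0.102% in connective tissue-like cells (7 of 6843, all higher) and 0% in the other 9 types. These counts changed when single libraries were left out: connective tissue-like cells had 37 genes higher and 19 lower without control replicate 2 and 0 without control replicate 1, and macrophage-like cells had 54 higher and 44 lower without control replicate 2. At an unadjusted p under 0.05 there was 1 of 8 members tested in connective tissue-like cells, beside 343 of all 6843 genes. In SGC-like cells it was 1 of 6, beside 101 of 8790 genes, and in both types the member was *Timp1*. DESeq2 on the same sums called 1 member in 1 type, *Timp1* in connective tissue-like cells, beside 13 genes higher and 2 lower of all 6843 there.

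*Timp1* in connective tissue-like cells had the largest difference of any member in any of these types. Controls 1 and 2 were at 18.2 and 36.2 CPM, from 15 and 20 UMIs, and injury replicates 1 and 2 at 179 and 120 CPM, from 184 and 85 UMIs. Both injury libraries were above both control libraries. The log2 fold change was 2.61 (SE 0.38, unadjusted p = 1.76e-04, adjusted p = 0.0968 over 6843 genes, edgeR), which missed the threshold. In DESeq2 the adjusted p was 2.99e-04, and in edgeR with the replicate number as a block it was 0.0120 (log2 fold change 2.62), both past the threshold. Leaving out control replicate 2 or injury replicate 2 brought the edgeR value past the threshold (log2 fold changes of 3.12 and 2.93, adjusted p = 1.70e-11 and 0.00551), and leaving out control replicate 1 or injury replicate 1 did not (2.19 and 2.21, adjusted p = 0.882 and 0.289).

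The difference was seen in the share of cells as well as in the level. Of connective tissue-like cells, 6.83% and 9.09% had a *Timp1* UMI without injury, and 38.2% and 40.6% had one with it. With each cell thinned to 1000 UMIs the shares were 2.44% and 3.50% against 11.8% and 14.7%, so they kept their order at equal depth. In macrophage-like cells, of a similar median depth (4088 against 4119 UMIs), the unthinned share was 0 to 1.84%. Of the connective tissue-like cells with *Timp1*, 11 of 14, 11 of 13, 70 of 84 and 52 of 58 also had an *Mmp2* UMI, beside 178 of 205, 107 of 143, 178 of 220 and 126 of 143 of all cells of the gate, so *Mmp2* was common there whether or not *Timp1* was found.

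Other values were read beside this difference. The connective tissue marker list itself summed to 76650 and 78417 CPM in the control and 110899 and 91589 CPM in the injury libraries of this gate. The mesenchymal list, marker genes of the type richest in *Timp1*, was at 249 and 429 CPM in the control and 261 and 530 CPM in the injury libraries of the same gate, against 12577 to 18783 CPM in mesenchymal-like cells. The list of the *Ly6c2* and *Plac8* group was at 126 and 109 CPM in the control and 326 and 278 CPM in the injury libraries. In its own gate it was at 8633 to 10955 CPM. Both this list and the connective tissue list were higher in both injury libraries. Of single genes in the connective tissue-like gate, 1163 of 6843 had that order after normalization. The SGC list was at 8.49 and 745 CPM and at 47.6 and 170 CPM. The immediate early list was at 31159 and 15807 CPM and at 18771 and 12320 CPM, so its groups overlapped. The part of these lists in the result was not tested.

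In the gate richest in *Timp1* no such difference was seen. The log2 fold change in mesenchymal-like cells was -0.09 (SE 0.27, adjusted p = 1.00, edgeR). The difference between the injury effects of connective tissue-like and mesenchymal-like cells was 2.58 (log2, SE 0.34, adjusted p = 3.85e-04 over 7410 genes, edgeR with the library as a block), past the threshold, as were 0.135% of the genes tested. With no upper limits on UMIs and genes it was 1.91 (adjusted p = 0.0375), under the log2 fold of 2 that a call needs. This comparison was chosen after the values were seen. *Timp1* in control connective tissue-like cells was far under the mesenchymal-like level, and in the injury libraries it came to 179 against 207 CPM and 120 against 228 CPM.

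SGC-like cells held less *Timp1*, at 11.9 and 10.1 CPM in the control libraries, from 2 and 20 UMIs, and at 29.0 and 25.6 CPM in the injury libraries, from 58 and 34 UMIs. Both injury libraries were the higher. The log2 fold change was 1.44 (SE 0.38, unadjusted p = 0.00470, adjusted p = 1.00, edgeR), so it did not pass the test. The injury effect in connective tissue-like cells was not shown to differ from it (difference 0.90, SE 0.51, adjusted p = 1.00, edgeR). Connective tissue markers in SGC-like cells summed to 490 and 1069 CPM in the control and 643 and 704 CPM in the injury libraries.

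*Mmp14* had both injury libraries above both control libraries in 4 types, by small amounts. In SGC-like cells it was at 77.6 and 78.3 CPM against 92.0 and 85.9 CPM (log2 fold change 0.25, SE 0.24), where 14.3% of all genes had this order. In connective tissue-like cells it was at 95.8 and 134 CPM against 165 and 139 CPM (0.51, SE 0.24), with 17.0% of all genes. In endothelial-like cells (0.50, SE 0.47, background 13.6%) it rested on 5 to 18 UMIs a library, and in smooth muscle-like cells (0.90, SE 0.57, background 11.9%) on 4 to 16. The adjusted p was 0.961 to 1.00 in edgeR, so none of these passed. In mesenchymal-like cells (background 13.4%) and macrophage-like cells (background 19.7%) the groups overlapped.

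In connective tissue-like cells *Timp3* lay below both controls, at 260 and 227 CPM in control and 190 and 145 CPM in injury libraries (log2 fold change -0.45, SE 0.24, adjusted p = 0.961, edgeR), as did 17.3% of all genes. *Mmp19* had its injury libraries above after normalization, though not in CPM (0.41, SE 0.33, adjusted p = 0.962, edgeR), and *Mmp2* was at a log2 fold change of 0.10 (SE 0.31, adjusted p = 0.992, edgeR). In myelinating Schwann-like cells *Adamts5* was lower in both injury libraries (112 and 84.1 against 54.2 and 67.2 CPM, log2 fold change -0.75, SE 0.40, adjusted p = 0.998, edgeR), as were 11.8% of all genes. In the pericyte-like (3 members tested), neutrophil-like (1), macrophage-like (5) and mesenchymal-like gates (7) no tested member separated the conditions. Of all genes, 268 were higher and 271 lower in both injury libraries of 2128 in pericyte-like cells. In neutrophil-like cells it was 118 (9.31%) and 128 of 1267. With so few members tested, these counts of 0 say little. In the *Ly6c2* and *Plac8* group none had enough counts.

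**Figure D4:**
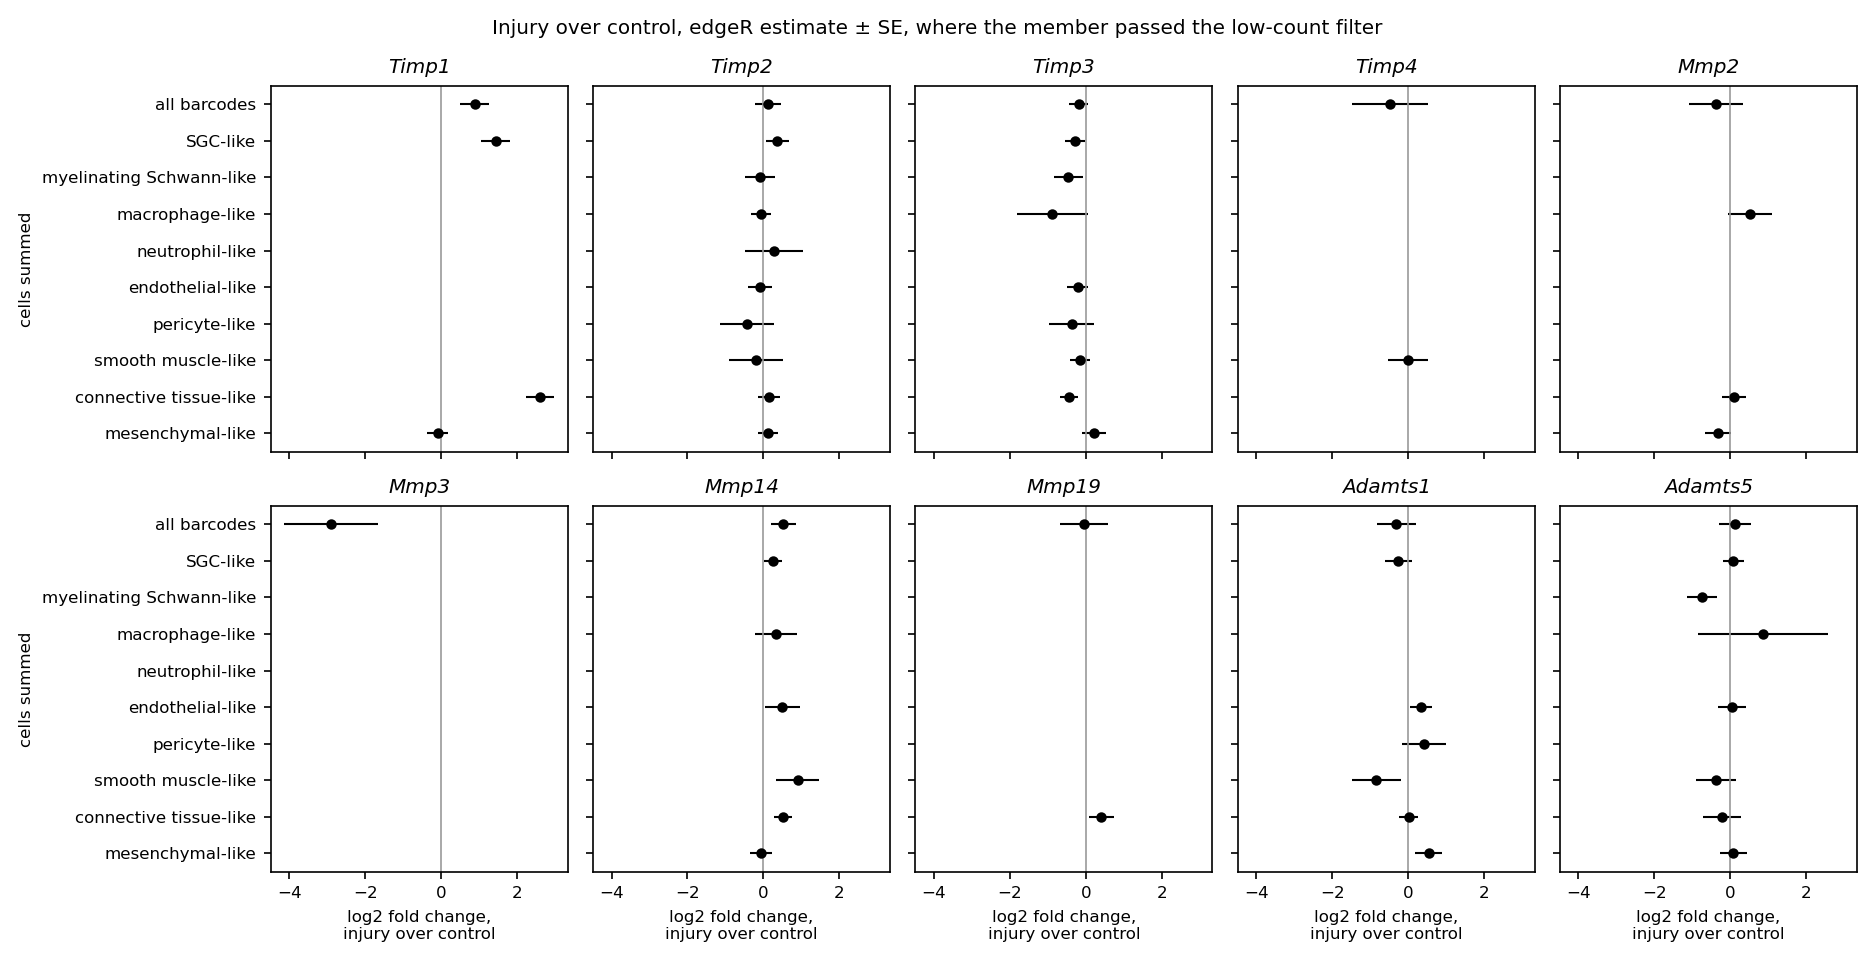
Log2 fold change of injury over control for each gene (panels), as edgeR estimate with its standard error, for all barcodes and for each type in which the gene passed the filter on low counts. The line marks 0. *Timp1* in connective tissue-like cells, at 2.61, stands furthest to the right with a small error, *Timp1* in SGC-like cells is at 1.44, *Mmp14* is at or right of 0 in all rows but mesenchymal-like cells, and *Mmp3* over all barcodes is at -2.90 with a wide error (SE 1.23).

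The wider protease families were placed in the same way. Here too, genes could pass the filter through the types where they are high. The calls thus describe where these genes are found and are no test of a list. The share of all genes called in each type is given above. Of 17 other matrix metalloproteinase genes 5 could be tested across types. *Mmp8* and *Mmp9*, the granule collagenase and gelatinase of neutrophils, were called higher in neutrophil-like cells (log2 folds 10.68, SE 0.30, and 9.64, SE 0.40). *Mmp8* was also called in the *Ly6c2* and *Plac8* group (5.96, SE 0.61) and *Mmp9* in macrophage-like cells (2.82, SE 0.63). *Mmp23* was called in mesenchymal-like (6.06, SE 0.46), connective tissue-like and smooth muscle-like cells, *Mmp15*, a membrane-bound enzyme, in myelinating Schwann-like (4.19, SE 0.47), SGC-like and *Kcnj13* group cells, and *Mmp11* in connective tissue-like and pericyte-like cells.

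Of 17 other ADAMTS genes 3 could be tested. *Adamts4*, an aggrecanase, was called higher in pericyte-like (log2 fold 6.04, SE 0.43), smooth muscle-like (6.01, SE 0.40), connective tissue-like and mesenchymal-like cells. *Adamts9* was called in endothelial-like (4.84, SE 0.41), pericyte-like and smooth muscle-like cells, and *Adamts2*, which trims procollagen, in mesenchymal-like (5.36, SE 0.27), connective tissue-like and *Kcnj13* group cells. Among 11 other regulators, *Lrp1*, the receptor that clears TIMPs and proteases, was called in connective tissue-like (3.27, SE 0.20) and mesenchymal-like cells (3.20, SE 0.22). *Bmp1*, a procollagen-trimming protease, was called in mesenchymal-like (2.67, SE 0.35) and *Kcnj13* group cells. Of the ADAMTS-like proteins, which lack the protease domain, *Adamtsl1* was called in connective tissue-like (4.42, SE 0.37), endothelial-like, mesenchymal-like, smooth muscle-like and pericyte-like cells, *Adamtsl4* in connective tissue-like (3.73, SE 0.48), pericyte-like and mesenchymal-like cells, and *Adamtsl5* in myelinating Schwann-like (4.13, SE 0.40) and pericyte-like cells.

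Of 11 ADAM genes, a family of membrane proteins of which several shed cell surface proteins, 7 could be tested. Macrophage-like cells had 5 called (11.5% of all genes tested were): *Adam33*, *Adam15*, *Adam17*, *Adam9* and *Adam8*. *Adam33* was as high in other gates, with log2 folds of 5.14 (SE 0.47) in macrophage-like, 5.18 (SE 0.47) in connective tissue-like and 5.08 (SE 1.00) in *Kcnj13* group cells, and it was also called in mesenchymal-like and erythroid-like cells. *Adam15* was called in endothelial-like (3.24, SE 0.19), macrophage-like (2.50, SE 0.20) and *Kcnj13* group cells, and *Adam8* in neutrophil-like cells (6.59, SE 0.63), the *Ly6c2* and *Plac8* group and macrophage-like cells. *Adam10* was called in myelinating Schwann-like cells (2.65, SE 0.23), and *Adam23* in non-myelinating Schwann-like (4.67, SE 0.78), dendritic-like, SGC-like and neuron-like cells.

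None of these wider lists had a gene called between injury and control, in any type or over all barcodes. Over all barcodes, the median log2 fold change of the 12 other matrix metalloproteinases tested was -0.14, of 12 other ADAMTS genes -0.26 and of 11 ADAM genes 0.10, beside a median of -0.03 over all genes tested. A pair of values, chosen after they were seen, had an unadjusted p under 0.05, and other such values in these lists were not counted. Of all genes tested, 547 of 7264 in macrophage-like and 343 of 6843 in connective tissue-like cells had such a p in edgeR. *Mmp12*, the macrophage elastase, was at a log2 fold change of 1.91 in macrophage-like cells (SE 0.58, adjusted p = 0.591, edgeR). *Reck*, a membrane-bound metalloproteinase inhibitor, was at -1.52 in connective tissue-like cells (SE 0.55, adjusted p = 0.961, edgeR).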

How the data were processed

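The 4 libraries were made with the 10x 3′ kit, and Cell Ranger (genome mm10) and Partek are named in the submitters' notes, with no versions. The deposited matrices hold raw UMI counts per gene and barcode, with no normalization by the authors. The members and gene lists were chosen with earlier results of these data known. Counts were summed per library over all barcodes or over the cells of a gate, with TMM factors and edgeR's filter on low counts, and tested with edgeR 4.0.16 (R 4.3.3). DESeq2 1.42.0 was an alternative. P-values were adjusted by Benjamini-Hochberg over all genes tested. Scripts used Python 3.11.15, pandas 2.3.3 and scipy 1.17.1, and the tests were checked on simulated counts. For equal depth each cell was thinned to 1000 UMIs, leaving out 13 shallower cells. No doublet caller was run, and only the upper limits of 15000 UMIs and 4000 genes bear on doublets. The upper limits also remove most neurons. Of gated cells 791 had exactly 3 markers, 678 led by 1 marker and 201 further cells were tied. All 10 genes were named in every type. Of the wider lists of proteases and regulators those called higher in a type were named, by rule at most 4 per list and comparison (*Adam8* in macrophage-like cells is outside it and was chosen after its value was seen), the immediate early and synapsin lists were not named gene by gene, and for each TIMP the 3 genes of highest correlation. Intervals and limits cover counting error only. A library held 5585909 to 11210875 counts. With 2 libraries per condition an exact permutation test cannot give a p below 0.333, so no single-value permutation test is reported.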

Additional observations from a re-analysis of the deposited data

Results flagged for a closer look

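The injury effect on *Timp1* differed between connective tissue-like and mesenchymal-like cells by 2.58 on the log2 scale (SE 0.34, adjusted p = 3.85e-04, edgeR with the library as a block), a test of the difference itself that was chosen after the values were seen. In connective tissue-like cells *Timp1* was higher in both injury libraries, and in mesenchymal-like cells the conditions overlapped. Over the other gates, cell limits and left-out libraries tried, the difference ranged from 1.91 to 2.98 and the adjusted p was at most 0.0375. The lowest value, 1.91 with no upper limits on UMIs and genes, is under the log2 fold of 2 that a call needs.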

How the results depend on the processing

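With 2 libraries per condition and 10 to 488 cells behind a sum, small differences were not detectable. The member calls between conditions within types, 0 as reported, were 1 with DESeq2, 1 with a gate lead of 2 markers and 2 with no filter on low counts. The latter 2 were *Timp1* in connective tissue-like and *Mmp3*, in single cells, in mesenchymal-like cells. In connective tissue-like cells, 13 genes were called higher and 2 lower of 6843 with DESeq2. There it was 10 and 0 of 6653 with the gate lead and 24 and 12 of 14961 with no filter. In mesenchymal-like cells with no filter it was 6 and 1 of 14002. *Timp1* in connective tissue-like cells kept its direction under every alternative, with log2 fold changes of 1.87 (no upper limits) to 3.12. With the replicate number as a block, 1 member was called, *Timp1* in connective tissue-like cells (2.62, adjusted p = 0.0120, edgeR), and no other member call changed. Nothing in the labels ties libraries of the same number, and there are only 2 such pairs. Over the genes tested, the difference between control replicates 1 and 2 correlated with that between injury replicates 1 and 2. The correlation was 0.24 to 0.53 over all barcodes and the types tested. With each library left out, the log2 fold change of *Mmp2* in connective tissue-like cells ran from -0.27 (without control replicate 2, reversed) to 0.65, and that of *Timp1* in mesenchymal-like cells from -0.30 to 0.25 (without control replicate 2, reversed). The latter was 0.050 with a gate lead of 2 markers. The cause was not tested. Genes called higher and lower in connective tissue-like cells were 7 and 0 as reported, 13 and 2 with DESeq2 and with the block, 24 and 12 with no filter, 37 and 19 without control replicate 2 and 0 and 0 without control replicate 1. Macrophage-like cells had 0 as reported, 4 and 6 with DESeq2, 12 and 11 with the block, 56 and 48 with no filter, 54 and 44 without control replicate 2 and 3 and 4 without control replicate 1. The other 8 types, with 0 as reported, had at most 3 higher with DESeq2, at most 8 higher and 2 lower with the block, 24 and 21 with no filter, and 15 and 25 with a library left out, and leaving out each of the 4 libraries gave calls in at least 1 of them. Calls of a member higher in a type numbered 28 as reported and 23 to 34 otherwise. With a gate of 2 markers, mesenchymal-like cells had 5 (725 of 7997 genes called) and SGC-like cells 2 (797). With a gate lead of 2 markers, mesenchymal-like cells had 5 (627 of 7406 genes) and smooth muscle-like cells 3 (701). Macrophage-like cells, with 0 as reported, had 1 with that gate lead (844 of 7406 genes) and 1 with no filter (1883 of 18735). With a library left out, log2 folds under 2 ended the calls of *Adamts1* in mesenchymal-like cells (1.51 without control replicate 1, 1.36 without injury replicate 1), of *Adamts5* in smooth muscle-like cells (1.81 without control replicate 1, 1.80 without injury replicate 1) and in mesenchymal-like cells (1.96 without injury replicate 2), and of *Mmp14* in SGC-like cells (1.93 without control replicate 2, 1.90 without injury replicate 2), with adjusted p still under 0.05. Across the alternatives 8 to 10 of the 10 genes kept their highest type. With a gate of 2 markers, adventitial fibroblast-like cells became the highest type for *Timp2* and *Adamts5*. There, 4 of the 8 members tested were called higher, beside 333 of 7997 genes. A gate lead of 2 markers left too few smooth muscle-like and pericyte-like cells to compare conditions.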
